A study of Mus musculus with 6 samples.

Results

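Macrophage marker transcripts were followed in purified colonic crypt cells, a preparation meant to hold epithelium, from C57BL/6 mice at 4 weeks of age. The markers are 10 genes chosen by name (Csf1r, Adgre1, Mrc1, Tyrobp, Fcer1g, Lyz2, Cd68, C1qa, C1qb and C1qc) out of the 55487 genes counted in each library. All 10 were found, and all 10 passed the filter on low counts, Tyrobp only through its level in the mutants. The 3 control samples came from M14(f/f) mice, in which the alleles of M14 are floxed (loxP-flanked). The 3 mutant samples came from M14(f/f);Villin-Cre mice, with the same floxed alleles and a Cre recombinase under the Villin promoter. M14 was taken to be Mettl14, a subunit of the enzyme that methylates adenosines in RNA. Polyadenylated RNA was sequenced in 3 libraries per genotype, named below control 1 to 3 and mutant 1 to 3. The sample descriptions number them as replicates and do not say whether each came from 1 mouse. The question asked here is what the crypt libraries hold of macrophage transcripts in each genotype.

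Macrophages are phagocytes of the myeloid lineage. In the colon they lie in the lamina propria under the epithelium, where they are renewed from blood monocytes, take up bacteria and dead cells, and depend on signalling through the receptor Csf1r. The Villin promoter is active in gut epithelium, so macrophages are outside the cells that this driver is known to target. In bulk RNA from a crypt preparation, more macrophages and more RNA of these genes per cell cannot be told apart, and neither can carry-over of cells during purification and a different number of cells in the tissue.

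Library totals ran from 24181631 to 35183636 counts, so that 3 counts correspond to 0.082 to 0.120 CPM (TMM-scaled counts relative to library size). The summed CPM of 10 epithelial genes (among them Epcam, Vil1 and Krt8) ran from 9722 to 14099, against 17.8 to 65.2 for the 10 macrophage markers. Mettl14 averaged 23.0 ± 2.78 CPM in controls and 12.8 ± 1.96 CPM in mutants (log2 fold change -0.85, SE 0.13, adjusted p = 6.22e-04). Here and below ± gives the SD of 3 libraries. Sex-linked genes set mutant 1 and mutant 2 apart. Xist, which is transcribed from the inactive X chromosome, was at 1.28 to 1.77 CPM in the controls, 652 in mutant 1, 53.1 in mutant 2 and 1.5 in mutant 3. The Y-linked gene Ddx3y was at 53.6 to 58.4 CPM in the controls, 0.541 in mutant 1, 38.0 in mutant 2 and 44.2 in mutant 3. Mutant 2 thus held transcripts of both kinds, and results without mutant 1 and mutant 2 are given below.

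Of the 10 markers 9 rose in mutant crypts and 1, C1qa, fell. Among all 18539 tested genes 23.5% were higher and 22.8% lower at the same threshold (adjusted p under 0.05 by edgeR). The median log2 fold change was 1.87 over the markers and 0.01 over all tested genes. Values of the groups did not overlap for any of the 10 markers, as for 56.9% of all tested genes. When the test asked for a change beyond 1.5-fold, 7 of the 10 were higher and 1 lower, where 9.28% and 5.54% of all tested genes were. The summed level of the 10 markers was 24.7, 17.8 and 21.7 CPM in controls 1, 2 and 3, and 44.3, 65.2 and 41.5 CPM in mutants 1, 2 and 3. Every mutant sum lay above every control sum, and the ratio of means was 2.36. Without C1qa the control sums were closer together (13.3 to 14.0 CPM) and the ratio was 3.47, a sum formed after the values were seen.

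**Figure D1:**
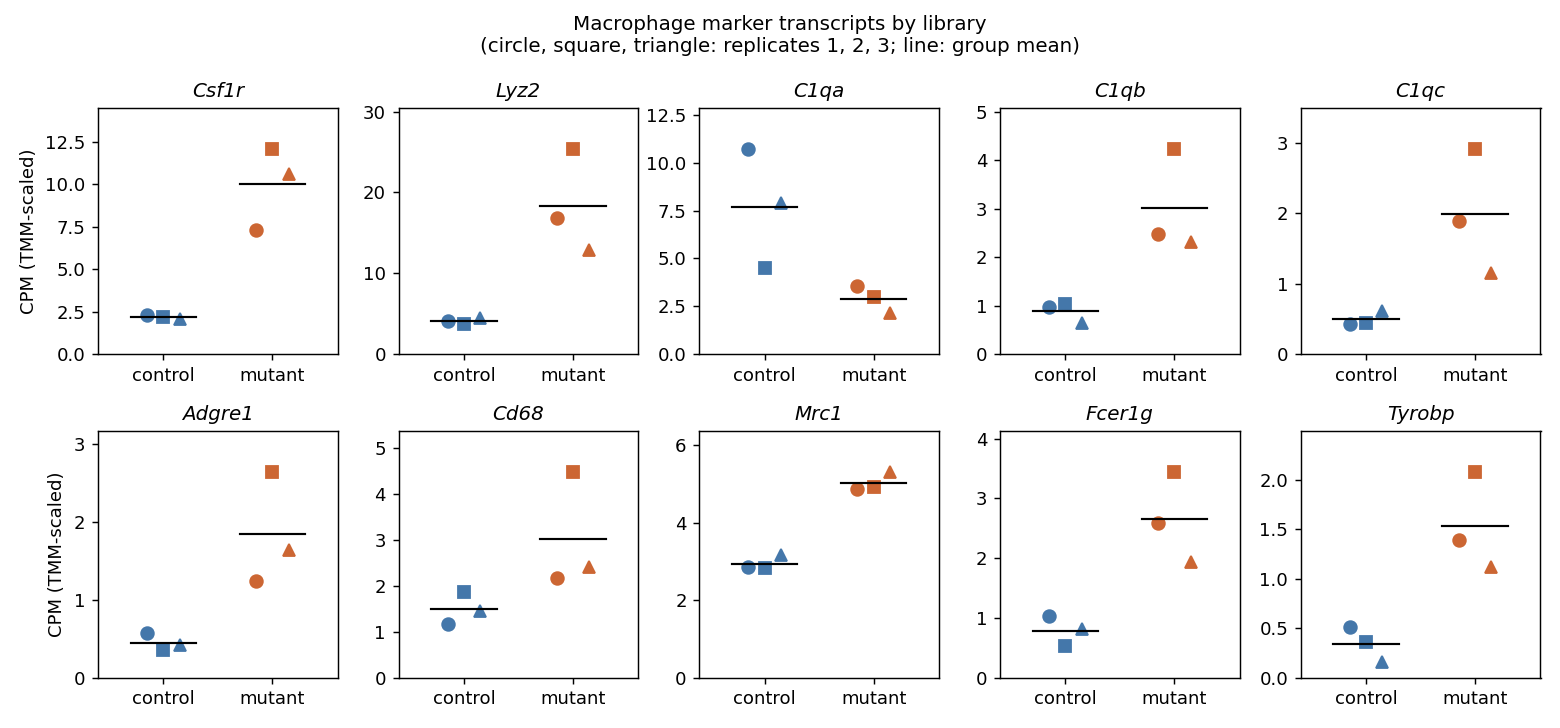
TMM-scaled CPM (y axis) of each macrophage marker in the 3 control (blue) and 3 mutant (orange) libraries, with the mean of each group as a line. Of the 10 panels 9 show all mutants above all controls and C1qa shows the reverse, and mutant 2 (orange square) is the highest library in 8 of the 9.

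Most of the rising markers were highest in the same mutant, but the lowest mutant differed between them. Mutant 2 was the highest of the mutants for 8 of the 9 genes that rose, and Mrc1, highest in mutant 3, was the exception. The lowest mutant was mutant 3 for 5 genes and mutant 1 for 4. The median of the 10 markers, relative to the control mean on the log2 scale, lay between -0.07 and 0.09 in controls and at 1.38, 2.01 and 1.15 in mutants 1, 2 and 3. Red blood cell genes were also highest in mutant 2, with summed CPM of 6.32 to 10.8 in controls and 16.0, 29.4 and 7.60 in mutants 1, 2 and 3, and their part in the result was not tested.

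**Figure D2:**
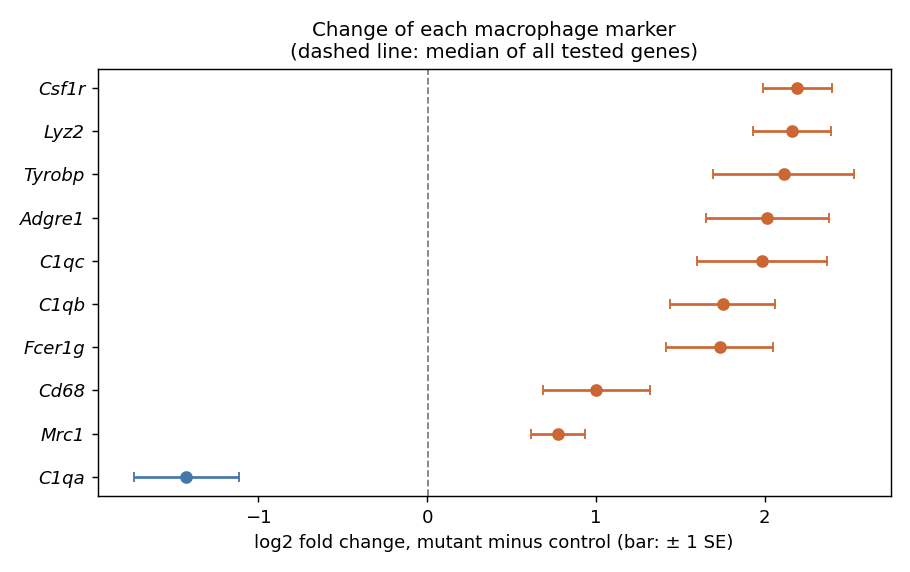
Log2 fold change, mutant minus control (x axis), of each marker with bars of 1 SE, and a dashed line at the median of all tested genes. The values of 7 markers lie between 1.73 (Fcer1g) and 2.19 (Csf1r), Cd68 and Mrc1 are lower at 1.00 and 0.77, and C1qa is at -1.43.

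Promoter sequence was at hand for 6 of the 10 markers (C1qb, C1qc, Cd68, Fcer1g, Lyz2 and Mrc1) in the RefSeq table for GRCm38.p6. No entry was matched for Csf1r, C1qa, Adgre1 or Tyrobp. Macrophage genes are known as targets of PU.1, an ETS-family factor encoded by Spi1 that binds purine-rich sites. The 300-base windows around the start sites were therefore searched on both strands for AGGAAG and GAGGAA, which can overlap in GAGGAAG. All 6 windows held at least one of them, as did 46% of the 32851 windows in the table. AGGAAG was in 5 of the 6 (35.4% of all windows) and GAGGAA in 4 of the 6 (28.3%). Stretches from 4 genes that rose are shown, from the strand of the gene and upstream of every exon annotated for it, with matches in capitals (CTTCCT and TTCCTC are the reverse complements).
C1qb (minus strand, chr4:136886201-136886350): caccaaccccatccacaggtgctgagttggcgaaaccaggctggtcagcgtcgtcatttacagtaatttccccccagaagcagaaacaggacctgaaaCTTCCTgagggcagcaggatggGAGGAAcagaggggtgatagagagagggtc
C1qc (minus strand, chr4:136893066-136893164): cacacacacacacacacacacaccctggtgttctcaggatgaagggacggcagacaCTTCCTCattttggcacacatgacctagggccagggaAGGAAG
Lyz2 (minus strand, chr10:117282322-117282471): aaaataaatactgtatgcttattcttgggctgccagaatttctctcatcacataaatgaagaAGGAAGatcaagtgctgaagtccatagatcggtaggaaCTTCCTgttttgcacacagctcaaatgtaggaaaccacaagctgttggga
Fcer1g (minus strand, chr1:171234366-171234515): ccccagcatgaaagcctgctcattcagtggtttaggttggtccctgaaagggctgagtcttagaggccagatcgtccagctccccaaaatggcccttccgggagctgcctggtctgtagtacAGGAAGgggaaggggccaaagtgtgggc
The Cd68 stretch of the same length held neither run of letters, although its full window held GAGGAA on 2 occasions. These matches describe the letters and say nothing of binding.

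The surface receptors rose by unequal amounts. Csf1r, the receptor for the growth factors Csf1 and Il34 on which macrophages depend, was at 2.28, 2.20 and 2.06 CPM in control libraries and 7.31, 12.1 and 10.6 CPM in mutant ones. The controls lay within a narrow band and every mutant was more than 3 times as high as any of them. Its log2 fold change of 2.19 (SE 0.20, adjusted p = 2.83e-05) was the largest among the markers. Adgre1, which encodes F4/80 (chromosome 17, plus strand, 57358691 to 57483527 on GRCm38), was at 0.571, 0.356 and 0.419 CPM in controls, and the mutants stood at 1.24, 2.64 and 1.64 CPM. Its control values rest on 12 to 20 counts, and it rose by 2.02 on the log2 scale (SE 0.36, adjusted p = 0.00144). Mrc1 encodes the mannose receptor CD206, which is known from tissue macrophages and also from some endothelial cells (chromosome 2, plus strand, 14229392 to 14332057). It was at 2.85, 2.82 and 3.16 CPM in controls, against 4.87, 4.92 and 5.31 CPM in mutants. The mutants were nearly level with one another, with the highest 1.09 times the lowest, while for Csf1r that ratio was 1.65. The log2 fold change of Mrc1 was 0.77 (SE 0.16, adjusted p = 0.00296), and it did not pass the test for a change beyond 1.5-fold (adjusted p = 0.201).

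Both ITAM adaptors rose. These are small membrane proteins that carry the signal of receptors without a signalling tail of their own, and natural killer cells, mast cells and other myeloid cells use them as well. Tyrobp (DAP12, chromosome 7, plus strand, 30413760 to 30417585) was at 0.514, 0.356 and 0.161 CPM in controls, against 1.39, 2.08 and 1.12 CPM in mutants. Control 3 held only 5 counts of it, so the size of its rise of 2.11 on the log2 scale is imprecise (SE 0.42, adjusted p = 0.00254). Fcer1g, the common gamma chain of Fc receptors (chromosome 1, minus strand, 171229572 to 171234365), was at 1.03, 0.534 and 0.807 CPM in controls, and mutants stood at 2.59, 3.44 and 1.94 CPM with no overlap. It rose by 1.73 (SE 0.32, adjusted p = 0.00159). Scaled for length, Tyrobp stood at 0.704, 0.792 and 0.757 of the TPM (counts per length, relative to the library's total) of Fcer1g in mutants 1, 2 and 3, and at 0.262 to 0.874 in controls.

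Of 12 listed receptors, kinases and phosphatases that work with the adaptors 10 were tested, of which 4 rose, 2 fell and 4 missed the threshold. These shares were read beside 23.5% higher and 22.8% lower of all tested genes, and with so few genes they do not set the partners apart. The median log2 fold change was 0.04, and Clec5a passed the filter on low counts only through the mutants. Fcgr2b, the inhibitory Fc receptor, rose from 0.623 ± 0.0231 to 3.23 ± 0.617 CPM (adjusted p = 5.33e-05) and Clec5a, a myeloid lectin that signals through Tyrobp, from 0.156 ± 0.108 to 1.51 ± 0.0926 CPM (adjusted p = 3.23e-04). The kinase gene Syk, which acts downstream of both adaptors, rose from 98.3 ± 3.42 to 230 ± 34.6 CPM. That level is far above the marker levels in the same libraries, and epithelial cells are known to express Syk too. Plcg2 rose by 0.52 on the log2 scale. Among those that fell was the phosphatase gene Ptpn6, by 0.23. Lyn and Inpp5d had log2 fold changes of -0.15 and 0.18 (adjusted p = 0.209 and 0.389).

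The markers of the lysosome and its cargo were Lyz2 and Cd68. Lyz2, lysozyme M (chromosome 10, minus strand, 117277331 to 117282321), was at 4.14, 3.68 and 4.45 CPM in controls, against 16.9, 25.4 and 12.9 CPM in mutants. It rose by 2.16 on the log2 scale (SE 0.23, adjusted p = 6.52e-05). Lyz1 is a near-copy, so reads shared by both genes may have been dropped in the counting. Cd68, a lysosomal membrane glycoprotein (chromosome 11, minus strand, 69664213 to 69666153), was at 1.17, 1.87 and 1.45 CPM in controls, with mutants at 2.16, 4.48 and 2.41 CPM. Mutants 1 and 3 lay just above control 2. Its log2 fold change was 1.00 (SE 0.32, adjusted p = 0.0270), and it missed the threshold without mutant 2 (0.61, adjusted p = 0.115), without control 1 (0.84, adjusted p = 0.0915) and without control 3 (0.96, adjusted p = 0.0750). Cd68 was thus the least secure of the 9 rises. Of 10 general lysosome genes 2 rose, 2 fell and 6 missed the threshold, shares near the 23.5% and 22.8% of all tested genes, and the median log2 fold change was 0.06. Gusb, beta-glucuronidase, rose from 44.3 ± 3.87 to 133 ± 15.1 CPM (adjusted p = 2.86e-06) and Lamp1, a lysosomal membrane protein gene, rose by 0.55 on the log2 scale.

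The C1q genes split. C1q, the recognition part of the classical complement pathway, is built from the A, B and C chains in equal numbers, and tissue macrophages are a main source of all 3. The genes lie side by side on the minus strand of chromosome 4, C1qb at 136880129 to 136886187, C1qc at 136889804 to 136893065 and C1qa at 136895917 to 136898803. C1qb was at 0.970, 1.04 and 0.645 CPM in controls, against 2.47, 4.24 and 2.32 CPM in mutants, a rise of 1.75 on the log2 scale (SE 0.31, adjusted p = 0.00135). C1qc was at 0.428, 0.445 and 0.613 CPM in controls, against 1.89, 2.92 and 1.15 CPM in mutants, a rise of 1.98 (SE 0.38, adjusted p = 0.00224). C1qa went the other way, from 10.7, 4.48 and 7.87 CPM in controls to 3.56, 2.96 and 2.13 CPM in mutants. This was a log2 fold change of -1.43 with an SE of 0.31 (adjusted p = 0.00444), and controls differed among themselves more than mutants did.

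Per length, C1qa stood far above C1qb in controls and near it in mutants. C1qa stood at 27.9, 11 and 19.4 TPM in controls 1, 2 and 3, where C1qb stood at 2.41, 2.43 and 1.52 TPM. In mutants 1, 2 and 3 C1qa stood at 8.30, 7.70 and 5.67 TPM and C1qb at 5.52, 10.5 and 5.91 TPM. The TPM ratio of C1qa to C1qb was thus 4.51 to 12.8 in controls and 0.730 to 1.5 in mutants, with no overlap. The ratio of C1qa to C1qc was 18.7 to 46.5 in controls and 1.88 to 3.49 in mutants, also with no overlap. C1qc stayed below C1qb: the ratio of C1qb to C1qc was 1.87 to 4.14 in controls and 2.32 to 3.59 in mutants, which overlap. The log2 ratio of C1qa to C1qb differed by -3.10 between genotypes (exact permutation test, 2-sided, p = 0.10, the smallest that 3 against 3 allows, and 0.24 adjusted over the 12 ratios tested). The fall of C1qa held without any 1 library, with log2 fold changes over all alternatives from -1.88 to -1.12. Gene totals do not show which part of C1qa the reads came from, and the source of its counts in controls was not tested.

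**Figure D3:**
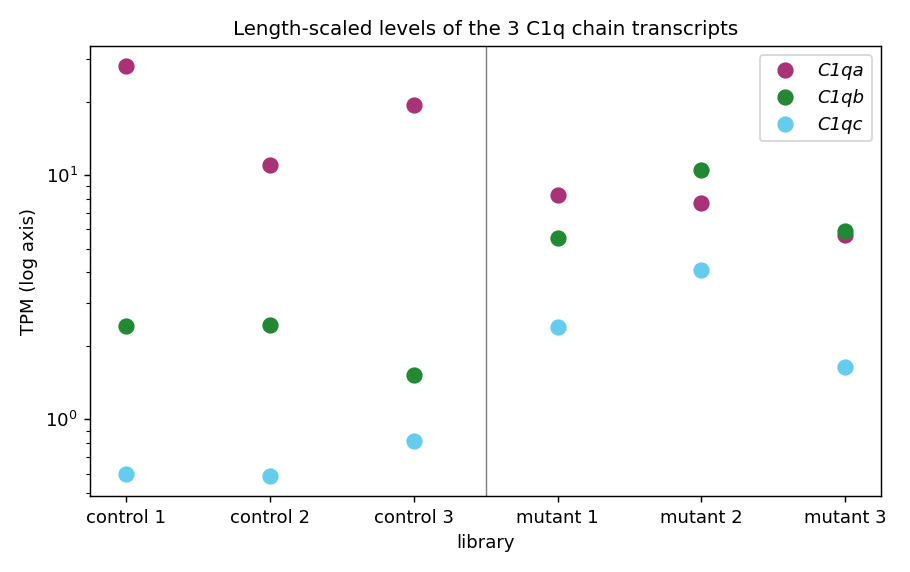
TPM on a log axis (y axis) of C1qa, C1qb and C1qc in each library (x axis). C1qa stands above both other chains in all 3 controls, by 4.51 to 12.8 times over C1qb, and meets C1qb in the mutants.

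Neighbouring genes were read as well. Within 100 kb on either side, the other genes that reached a floor on total counts were Ephb2, Epha8 and Zbtb40, all on the same strand. Epha8, the next of these upstream, held 0 to 3 counts in each control (mean 0.0384 CPM) and was not tested. Ephb2, which lies beyond C1qb and encodes a receptor that sorts crypt cells, averaged 177 ± 8.10 CPM in controls against 193 ± 9.03 CPM in mutants (log2 fold change 0.13). Zbtb40 fell from 25.5 ± 0.586 to 20.5 ± 1.22 CPM.

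Of 12 other complement genes 4 rose, 4 fell and 4 missed the threshold, beside 23.5% higher and 22.8% lower of all tested genes, so the counts alone do not set the list apart. The median log2 fold change was -0.12, and C3ar1 and C5ar1 passed the filter on low counts only through the mutants. Those that rose are known from myeloid cells: properdin (Cfp) from 1.83 ± 0.541 to 7.24 ± 0.895 CPM, the integrin chain gene Itgb2 from 1.71 ± 0.354 to 4.54 ± 0.834 CPM, and the anaphylatoxin receptor genes C3ar1 and C5ar1 by 2.47 and 1.63 on the log2 scale. Those that fell included the C1 inhibitor gene Serping1, from 4.0 ± 1.03 to 1.96 ± 0.293 CPM, the protease gene C1ra by 0.78, and the factor B gene Cfb by 0.52. The summed level of 8 fibroblast markers was 228 to 271 CPM in controls and 100 to 126 CPM in mutants, and its part in these falls was not tested.

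Set against Csf1r within each library, 6 of the other 9 markers kept ratios that overlapped between genotypes, namely Lyz2, C1qb, C1qc, Adgre1, Fcer1g and Tyrobp. Their log2 ratios to Csf1r differed between genotypes by -0.42 to 0.10. Mrc1, Cd68 and C1qa lost ground to Csf1r, by 1.39, 1.21 and 3.52 on the log2 scale, with no overlap (exact permutation p = 0.10 for each, the smallest possible, 0.24 adjusted over the 12 ratios). There was thus 1.36 ± 0.154 CPM of Mrc1 for each CPM of Csf1r in controls and 0.525 ± 0.131 in mutants.

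The order of levels per length changed as well. In controls C1qa came first (19.4 ± 8.47 TPM), followed by Lyz2 (8.10 ± 0.847), and the ranges of these did not overlap. Then came Cd68 (3.09 ± 0.646), Fcer1g (2.37 ± 0.812), C1qb (2.12 ± 0.522), Tyrobp (1.35 ± 0.733) and Mrc1 (1.2 ± 0.0720), where each overlapped with its neighbours among these 5. Csf1r, C1qc and Adgre1 closed the order at 0.985, 0.667 and 0.363 TPM, with no overlap from Mrc1 down. In mutants Lyz2 came first (36.8 ± 13.5 TPM) with no overlap with the next. Fcer1g (7.99 ± 2.35), C1qb (7.32 ± 2.79), C1qa (7.22 ± 1.37), Cd68 (6.37 ± 2.88), Tyrobp (6.05 ± 2.08), Csf1r (4.60 ± 1.36), C1qc (2.71 ± 1.25), Mrc1 (2.08 ± 0.224) and Adgre1 (1.51 ± 0.646) followed, each overlapping with its neighbour.

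The genes most like the markers over the 6 libraries were sought by Euclidean distance between log2 CPM profiles, each centred on its control mean, and the median profile of the 10 markers. The 10 nearest included, in order, Itgal, H2-Eb1, Apoe, Tgm5, Coro1a, Adgrb1, Mycl, Rab11fip5 and Pla2g7. Itgal encodes the leukocyte integrin chain LFA-1 alpha and was at 1.2, 1.01 and 1.03 CPM in controls, against 3.32, 5.56 and 3.25 CPM in mutants. It was highest in mutant 2, a likeness to the markers that the choice by profile sets in advance. H2-Eb1, an MHC class II chain gene, rose from 2.84 ± 0.222 to 8.10 ± 2.37 CPM, and Apoe, an apolipoprotein gene that macrophages express strongly, from 16.5 ± 1.64 to 52.3 ± 15.3 CPM. Coro1a, a leukocyte actin regulator, rose from 2.76 ± 0.378 to 8.77 ± 1.69 CPM. The others named rose too, Mycl from 14.6 ± 1.38 to 43.5 ± 4.96 CPM and Rab11fip5 from 2.65 ± 0.125 to 7.52 ± 0.898 CPM. The log2 fold changes of Tgm5, Adgrb1 and Pla2g7 were 1.72, 1.61 and 1.63. Only Coro1a among the genes named was on any of the gene lists. Since the likeness rests on 6 libraries and mostly on the difference between genotypes, it does not show whether these RNAs come from the same cells.

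Of 25 other macrophage genes 22 were tested, of which 17 rose, 3 fell and 2 missed the threshold, and the median log2 fold change was 1.85. Over all tested genes 23.5% were higher and 22.8% lower. Of the 17, 9 passed the filter on low counts only through the mutants, Pf4 and Clec7a among them, so the count and the median are partly set by the filter. Cybb, which encodes the catalytic chain of the oxidase that phagocytes use against microbes, went from 1.03 ± 0.0284 to 7.96 ± 1.79 CPM, a rise of 2.94 on the log2 scale (SE 0.22, adjusted p = 7.66e-06). Itgam, the CD11b chain, rose from 1.49 ± 0.468 to 5.39 ± 0.353 CPM, and Aif1, which encodes Iba1, from 0.559 ± 0.188 to 2.87 ± 0.358 CPM. The log2 fold changes of Pld4, Pf4 and Clec7a, the beta-glucan receptor gene, were 2.71, 2.74 and 2.87, and that of Cd14, the lipopolysaccharide co-receptor gene, was 0.88. Spi1, the PU.1 gene, was at 0.713, 0.326 and 0.323 CPM in controls, against 1.74, 1.64 and 2.21 CPM in mutants, a rise of 2.02 (adjusted p = 0.00119). Of the 17 that rose 13 had control means under 1 CPM. The filter shapes this share too, since a gene that low in controls could enter the test through its mutant level.

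Among the 3 that fell were genes abundant in control crypts. Mertk, a receptor for uptake of dead cells, averaged 97.9 ± 1.88 CPM in controls and 39.0 ± 6.81 CPM in mutants, with a log2 difference of -1.33 ± 0.11 (SE) and an adjusted p of 1.72e-05. Ctss, cathepsin S, fell from 238 ± 10.9 to 140 ± 36.6 CPM. In controls both levels were above those of the 10 markers, whose control means ran from 0.344 to 7.69 CPM. Because Mertk and Ctss hold most of the list's counts, its summed level was lower in mutants (217 to 310 CPM) than in controls (374 to 395 CPM), although 17 of its members rose. Markers of long-lived resident macrophages were scarce. Timd4, Vsig4 and Siglec1 held 0 to 7 counts in each library and were not tested, and Cd163 was at 0.455 ± 0.149 and 0.378 ± 0.165 CPM (adjusted p = 0.619).

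**Figure D4:**
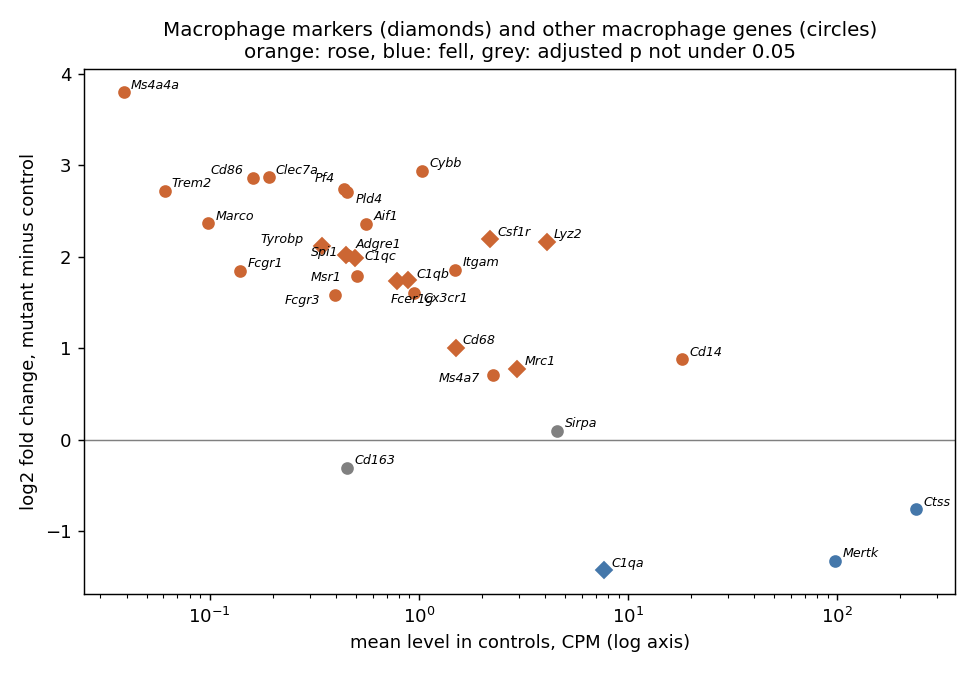
Log2 fold change, mutant minus control (y axis), against the mean control level in CPM (x axis, log scale) for the 10 markers (diamonds) and 21 other macrophage genes (circles). Of the genes shown, those that fell (C1qa, Mertk and Ctss) had control means of 7.69 CPM or more, and most that rose had control means under 1 CPM. Genes low in controls could enter the plot through their mutant level, so the filter partly sets this pattern.

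Among signals that draw or sustain macrophages, Csf1, a ligand of Csf1r, was at 1.80, 2.08 and 2.23 CPM in controls, against 3.79, 6.00 and 5.09 CPM in mutants, a rise of 1.29 on the log2 scale (SE 0.21, adjusted p = 9.41e-04). The other ligand gene, Il34, was at 1.34 ± 0.162 and 1.46 ± 0.423 CPM (adjusted p = 0.742). Ccl2, the chemokine that draws monocytes, had 0, 1 and 1 counts in controls and was at 1.74, 5.96 and 3.66 CPM in mutants (adjusted p = 4.21e-05). Ccl3 had 0, 1 and 0 counts in controls and was at 0.502, 0.720 and 0.902 CPM in mutants (adjusted p = 1.83e-04). Cx3cl1 and Ccl5 had log2 fold changes of 0.18 and 0.85 (adjusted p = 0.0755 and 0.0566). Of the 11 signals listed 5 were too low to test, and Ccl2 and Ccl3 passed the filter on low counts only through the mutants. Of 5 monocyte genes 4 were tested, of which 2 rose (Ccr2 and Chil3, the latter passing the filter only through the mutants) and 2 missed the threshold. Over all tested genes 23.5% were higher, and so few monocyte genes do not set the list apart. F13a1 and Vcan had log2 fold changes of 0.56 and -0.17 (adjusted p = 0.0741 and 0.341), and the summed level of the list was 15.5 to 18.3 CPM in controls and 15.2 to 19.9 CPM in mutants. Ccr2, the Ccl2 receptor, rose from 0.679 ± 0.242 to 1.86 ± 0.498 CPM, while the monocyte gene Ly6c2 held 0 to 15 counts in each library and was not tested.

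Of 8 listed dendritic cell genes 4 were too low to test, and of the others Flt3 and Siglech passed the filter on low counts only through the mutants. The summed level of all 8 was 1.46 to 1.61 CPM in controls and 7.74 to 11.2 CPM in mutants. Itgax, which some gut macrophages also express, rose by 2.49 on the log2 scale, Zbtb46 by 2.82, Siglech by 3.62 and Flt3 by 2.87. Of 9 listed neutrophil genes 4 were too low to test, and S100a8, S100a9 and Csf3r passed only through the mutants. The summed level of all 9 was 9.10 to 13.2 CPM in controls and 13.1, 40.2 and 34.2 CPM in mutants 1, 2 and 3, most of it Ly6g. S100a8 had 1, 2 and 0 counts in controls and was at 0.734, 2.96 and 2.87 CPM in mutants, whereas the granule gene Elane held 0 to 2 counts in every library.

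Few lymphoid genes passed the test, where 23.5% of all tested genes were higher and 22.8% lower. Of 8 T cell genes 1 rose (Cd4, by 2.37 on the log2 scale, passing the filter only through the mutants), 1 fell (Lck, by 1.01) and 6 did not pass, and their summed level was 8.46 to 10.8 CPM in controls and 7.60 to 10.6 CPM in mutants. Of 7 natural killer cell genes 4 were too low to test, and Gzma passed the filter only through the mutants. The 3 tested (Klrd1, Gzmb and Gzma) had log2 fold changes of -0.23 to 0.12 (adjusted p = 0.718 to 0.864). Of 8 B and plasma cell genes 5 were too low to test. The 3 tested (Igha, Ms4a1 and Ighm) had log2 fold changes of 0.21 to 1.27 (adjusted p = 0.0752 to 0.631). Among mast cell and eosinophil genes 1 rose (Epx, likewise through the mutants) and 1 fell (Mcpt1) of 5 tested. Of 8 genes shared by leukocytes 6 rose, led by Rac2 (2.79 ± 0.247 to 21.4 ± 1.13 CPM). Ptprc, which encodes the pan-leukocyte surface protein CD45, was at 7.42, 8.93 and 8.91 CPM in controls, against 9.32, 12.8 and 8.23 CPM in mutants, with overlap (log2 fold change 0.26, adjusted p = 0.246).

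Stromal and epithelial genes moved in both directions. Their counts are to be read beside 23.5% higher and 22.8% lower of all tested genes. Of 8 fibroblast genes 5 fell and 3 did not pass, with Col1a1 down from 51.0 ± 4.23 to 20.1 ± 1.87 CPM and Col3a1 from 111 ± 9.98 to 45.3 ± 6.61 CPM. Of 6 smooth muscle genes 4 fell, Des by 1.02 on the log2 scale. Endothelial genes were divided, with Vwf and Pecam1 up by 1.72 and 0.95, Emcn down by 1.05 and 5 not passing. The summed level of the endothelial list was 15.3 to 17.4 CPM in controls and 24.2 to 26.5 CPM in mutants. Among 5 red blood cell genes Alas2 rose by 1.35 (adjusted p = 0.0403) and 4 did not pass. Of 10 epithelial genes 5 fell and 2 rose, with Epcam down by 0.43 and Cldn3 up by 0.60. Relative to the summed epithelial level of each library, the summed macrophage markers were 2.79 times as high in mutants as in controls.

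**Figure D5:**
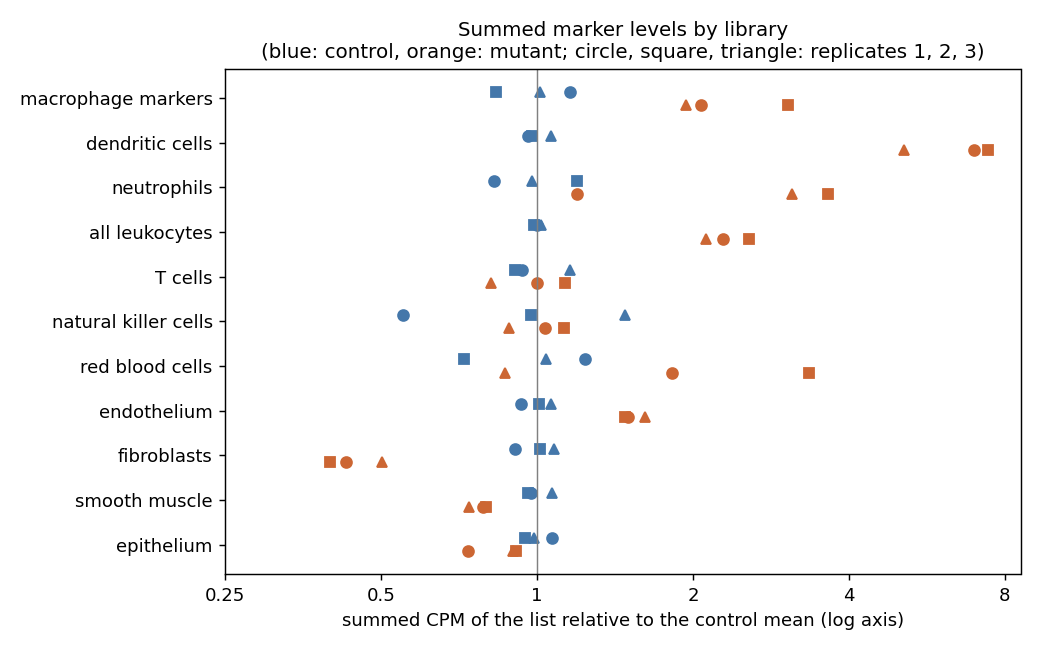
Summed CPM of each marker list in each library relative to the mean of the 3 controls (x axis, log scale), with controls in blue and mutants in orange. The sums of the 10 macrophage markers and of dendritic cell, all-leukocyte and endothelial genes lie above every control in all 3 mutants. T cell, natural killer cell, neutrophil (mostly Ly6g) and red blood cell sums overlap. Fibroblast, smooth muscle and epithelial sums lie below.

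Leaving out both libraries with unusual sex-linked values left mutant 3 alone against 3 controls, with its spread taken to be like that of the controls. In that fit the log2 fold changes of Csf1r, Adgre1, Lyz2, C1qb, Fcer1g and Mrc1 were 2.25, 1.83, 1.62, 1.36, 1.26 and 0.82. That of C1qa was -1.88. The log2 fold changes of C1qc, Tyrobp and Cd68 were 1.18, 1.65 and 0.66, against 1.98, 2.11 and 1.00 with all libraries. Their calls were lost, and the parts of the smaller changes and of the fewer libraries in this were not tested.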

How the data were processed

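Raw fragment counts per gene, 1 file per library, were deposited by the authors. The submitters' processing notes name Trim Galore 0.6.5, STAR 2.6.1d as the aligner, and GRCm38. Per the file headers, fragments were counted over exons with featureCounts 1.6.4 and GENCODE vM25, on the strand of read 1, without options that count reads with several alignments or on several genes, so near-copies can lose reads. Csf1r overlaps an exon of Hmgxb3, which is on the opposite strand. Groups were taken from the sample descriptions. No label says that equal replicate numbers share a litter or day.

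Genes were tested with edgeR 4.0.16 (R 4.3.3): filterByExpr (minimum count 10, minimum total 15), TMM scaling, and the quasi-likelihood F test, 2-sided, on genotype alone. Adjusted p is by Benjamini-Hochberg across the 18539 genes that passed, called under 0.05. Of 43508 genes with a count, the rest were too low. SE was derived from the fold change and F. The fits were also run on simulated counts in which far fewer genes changed than were called here. That run does not show how they perform when so many genes change. TPM was computed here from counts and exon lengths and is not TMM-scaled. DESeq2 1.42.0, limma 3.58.1 (voom), other scalings, filters, thresholds, a replicate block and left-out libraries were alternatives.

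The markers and the 21 gene lists (189 places) were chosen with earlier results of these data known. Named were the markers, Mettl14, the 10 genes nearest in profile (mean of at least 1 CPM, 0.25 CPM added before log2), and up to 4 (or 8) tested genes with the smallest p of each list. Predicted genes and pseudogenes were left out of the nearest genes. Chosen after their values were seen were Spi1, Ctss, Cd163, Timd4, Vsig4, Siglec1, Ly6c2, Elane, Ptprc, Xist, Ddx3y and the neighbours of C1qa. The p-values measure the spread between replicate samples, 3 per group. CPM floors cover counting error only. Some genes that the naming rule picks are not reported here.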

Additional observations from a re-analysis of the deposited data

How the results depend on the processing

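Each of the 10 markers was refitted under 18 alternatives. Of the 180 values none changed sign, 171 stayed on the same side of the threshold and 9 lost the call: Cd68 in 6, and C1qc, Mrc1 and Tyrobp in 1 each. The number of markers that rose was 9 under 3 other scalings, both other filters, DESeq2, limma-voom, the replicate block and without the ribosomal RNA row and mitochondrial genes. It was 8 at an adjusted p of 0.01, 7 against the 1.5-fold null and 8 to 9 without any 1 library. C1qa fell in all of them. Of all 18539 tested genes 4354 were higher and 4235 lower, 3051 and 2824 at an adjusted p of 0.01, and 1720 and 1027 against the 1.5-fold null. Without any 1 library 3574 to 4335 genes were higher and 3448 to 4236 lower, of 18929 to 19747 tested. With library totals only 4881 genes were higher and 3389 lower, which moved the split. Same-numbered libraries did not deviate together (correlations -0.12, -0.09 and -0.15), so the numbers were not taken as pairs. With the replicate block 3789 genes were higher and 3614 lower, and no marker call changed. The ratio of summed marker levels ran from 2.00 (without mutant 2) to 2.57 over left-out libraries, was 1.83 without Lyz2 and Cd68, and was 3.47 without C1qa, an alternative chosen after seeing the data. Depth limits Tyrobp, C1qc and Adgre1, with 5 to 20 counts in each control.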
